A study of Mus musculus with 5 samples.

Results

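The splicing factor genes examined here are the 52 genes on the array whose symbols begin with Srsf, Hnrnp, Sf3a, Sf3b, Snrp or U2af, together with Tra2a and Tra2b, out of 18193 genes read by at least 1 probe set that belongs to no other gene. A probe set is a group of short oligonucleotides that reads 1 transcript region, and 153 of them belonged to 1 of these genes alone, with 1 probe set for 15 genes and between 2 and 7 for the other 37. Each gene was read by the probe set with the highest mean over the 5 arrays, and its other probe sets were then set beside it. Transcript levels had been measured on Affymetrix MOE430 2.0 arrays in hematopoietic stem cells (HSCs) of Atxn1L-null mice (2 arrays) and of wild-type (WT) mice (3 arrays). Both genotypes were C57Bl/6, without treatment and 6 to 8 weeks old by the sample labels, and Atxn1L, the gene lost in the null mice, encodes a paralog of the ataxia protein Ataxin-1. The allele is a germline null, so every cell of the animal lacked the gene and not the HSCs alone. HSCs were sorted from bone marrow as lineage-negative, c-Kit+, Sca-1+ and CD150+ cells of the Hoechst side population, and cells of several mice were pooled for each array. The study calls the arrays biological replicates, and the labels do not say how mice were divided among the pools, so each p measures the spread between these arrays.

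Splicing removes introns from the primary transcript in the spliceosome, a machine built from small nuclear ribonucleoproteins (snRNPs), each a short RNA held by a ring of Sm proteins and by proteins of its own. U2AF reads the 3' end of the intron and recruits the U2 snRNP, whose SF3a and SF3b complexes hold the branch point. SR and Tra2 proteins bind exonic enhancers and mostly favor use of nearby splice sites, hnRNP proteins coat the transcript and often counter them, and in human blood SF3B1, SRSF2 and U2AF1 are among the genes most often mutated in myelodysplastic syndromes.

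Values are log2 GCRMA values, on which a difference of 1 is a doubling, and values from about 2 to 5 are close to the floor of the scale. The criterion for a call, higher or lower in the null HSCs, was a limma p no greater than 0.05 together with a change of 1.5-fold or more, which is 0.585 on the log2 scale. Atxn1l itself read 3.08 and 3.99 in the null arrays, against 6.80, 6.69 and 4.98 in the WT arrays, on the probe set with its highest mean, and the genotypes did not overlap. Of the 11 HSC markers measured, 0 were called and 0 had an unadjusted limma p under 0.05, and 9 had a mean of at least 5. Procr, the endothelial protein C receptor that marks HSCs, read 13.23 and 13.54 in null and 13.55, 13.64 and 13.54 in WT arrays, whereas Slamf1, which encodes the CD150 used for sorting, read 3.86 and 3.91 in null and 3.87, 3.90 and 3.999 in WT arrays, near the floor. In the 6 lists of markers of other blood and stromal cells, 0 genes were called and 0 had an unadjusted limma p under 0.05. A mean of at least 5 was found in 7 of 9 granulocyte and monocyte markers, 2 of 5 megakaryocyte and platelet, 2 of 6 B cell, 1 of 8 endothelial and stromal, 0 of 6 T and NK cell and 0 of 5 erythroid markers. The myeloid granule genes among them were bright in both genotypes: Mpo, myeloperoxidase, read 12.42 and 11.75 in null and 10.93, 11.52 and 11.98 in WT arrays, and S100a8, a calcium-binding protein of neutrophils, 13.87 and 13.44 in null and 13.03, 13.27 and 13.95 in WT arrays. Both overlapped, as did the summed log2 values of the granulocyte and monocyte list, at 82.5 and 87.1 in null and 80.7 to 86.8 in WT arrays, and the part of such cells in the results was not tested. The control probe sets for Gapdh showed a larger excess of 3' over 5' signal in the null arrays, at 7.33 and 7.21, against 5.89, 6.02 and 5.92 in the WT arrays. For beta-actin the excess was 7.43 and 7.28 in null and 6.71, 6.60 and 6.40 in WT arrays. Both controls separated the genotypes, and their part in the results that follow was not tested.

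Among the splicing factor genes, 5 were called higher in Atxn1L-null HSCs and 0 lower. They were U2af1, Srsf3, Snrpb2, Snrpf and Hnrnpr, with rises between 1.67-fold and 2.30-fold. The 5 make up 9.62% of the 52 genes, where 1.57% of all 18193 genes were called higher and 1.43% lower. Splicing factor genes are mostly bright, with 49 of 52 at a mean of at least 5, and among all 7070 genes that bright the shares were 3.35% higher and 3.44% lower. By limma, 0 of the 52 passed an adjusted p of 0.05 over the 45037 probe sets tested, and the lowest adjusted p was 0.586. At an unadjusted p of at most 0.05 with no fold required, 6 were higher and 0 lower, the added gene being Hnrnpc. A fold of 1.5 with no p required was reached by 8 genes, all of them higher in the null HSCs.

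The shift of the genes together was small. The median log2 difference, null minus WT, was 0.07 over the 52 genes, against -0.002 over all genes and 0.02 over the bright ones. Of the 52, 33 differences were positive and 19 negative, or 63.5% positive where 45.4% of all genes and 52.5% of the bright ones were. In 16 genes both null arrays lay above all 3 WT arrays, and in 4 both lay below, against 9.14% and 8.35% of all genes and 18.2% and 15.3% of the bright ones. No exact test of 2 arrays against 3 can fall below p = 0.1. The differences by family show where the 5 calls lie.

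**Figure D1:**
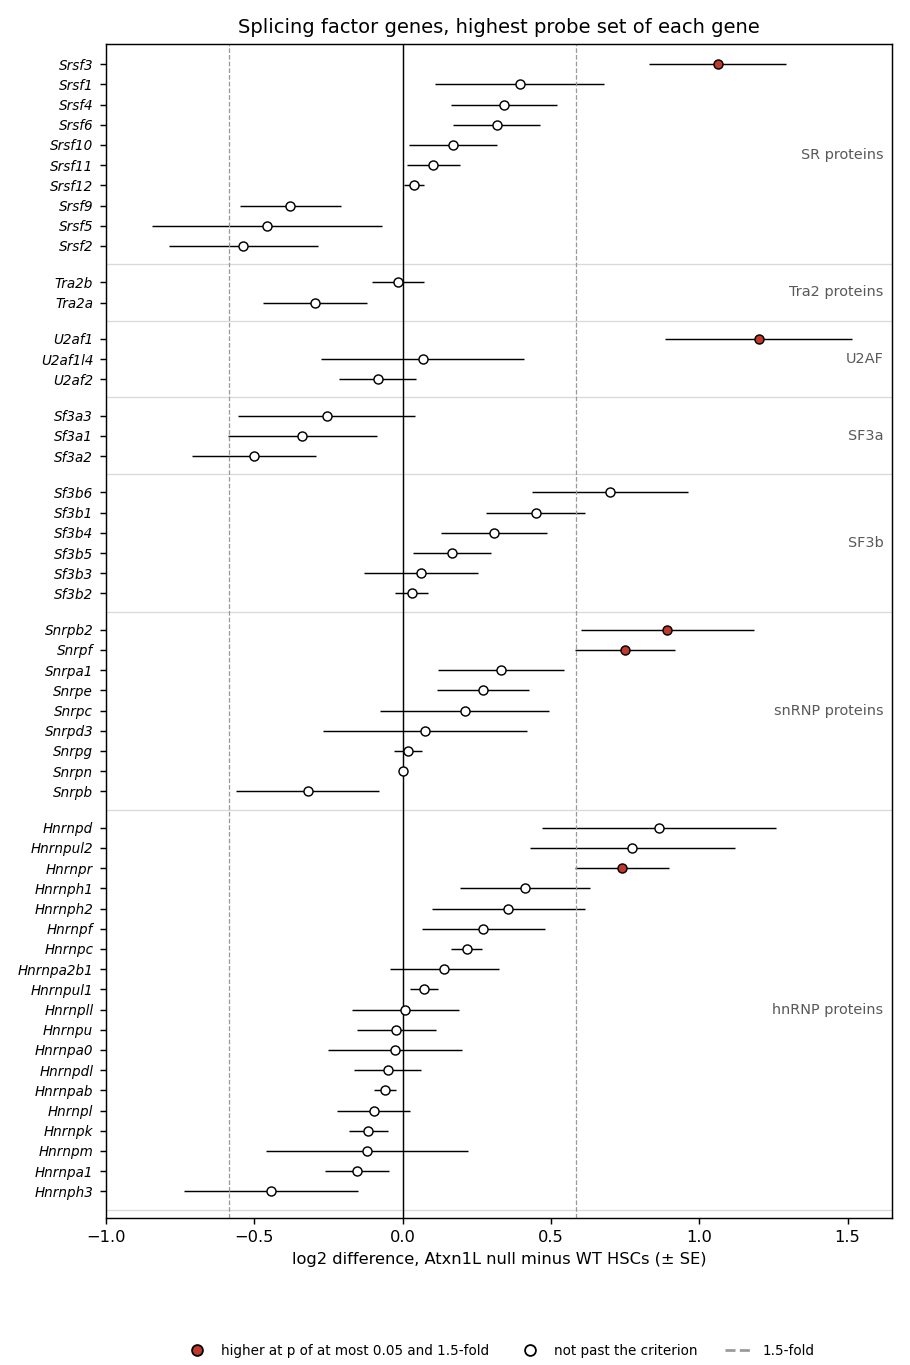
Log2 difference, Atxn1L null minus WT (horizontal axis, ± SE of the limma fit), of the highest probe set of each of the 52 splicing factor genes, grouped by family, with red points past p of at most 0.05 and 1.5-fold and dashed lines at 1.5-fold. The red points are U2af1, Srsf3, Snrpb2, Snrpf and Hnrnpr, and the 6 SF3b genes lie to the right of 0 while the 3 SF3a genes lie to the left.

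The 250 bases upstream of the start of the 5 genes called higher are shown so that the start regions can be compared. They come from RefSeq on mouse build GRCm38.p6, where 46 of the 52 genes had an entry, and run 5' to 3' on the strand of the gene. U2af1 and Hnrnpr each have 2 windows listed, of which 1 is shown. Capitals mark the CCAAT box on either strand (CCAAT or ATTGG), at which NF-Y binds, and the TATA box (TATAAA, on either strand).
U2af1, chr17:31658765-31659014, minus strand: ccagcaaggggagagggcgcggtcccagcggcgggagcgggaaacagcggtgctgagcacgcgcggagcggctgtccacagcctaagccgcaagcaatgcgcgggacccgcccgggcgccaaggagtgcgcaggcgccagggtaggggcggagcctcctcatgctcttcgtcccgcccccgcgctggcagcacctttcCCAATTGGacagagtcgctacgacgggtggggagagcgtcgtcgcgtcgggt
Srsf3, chr17:29032410-29032659, plus strand: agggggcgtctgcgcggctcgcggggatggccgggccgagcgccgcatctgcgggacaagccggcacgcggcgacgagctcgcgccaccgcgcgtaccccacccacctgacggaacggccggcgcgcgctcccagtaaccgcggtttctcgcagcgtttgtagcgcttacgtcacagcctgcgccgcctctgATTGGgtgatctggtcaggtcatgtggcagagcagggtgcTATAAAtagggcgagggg
Snrpb2, chr2:143062819-143063068, plus strand: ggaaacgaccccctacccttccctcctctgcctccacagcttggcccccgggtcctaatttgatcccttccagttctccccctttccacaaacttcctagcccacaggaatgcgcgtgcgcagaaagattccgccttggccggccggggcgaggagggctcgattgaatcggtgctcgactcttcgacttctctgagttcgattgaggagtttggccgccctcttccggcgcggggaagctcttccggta
Snrpf, chr10:93589659-93589908, minus strand: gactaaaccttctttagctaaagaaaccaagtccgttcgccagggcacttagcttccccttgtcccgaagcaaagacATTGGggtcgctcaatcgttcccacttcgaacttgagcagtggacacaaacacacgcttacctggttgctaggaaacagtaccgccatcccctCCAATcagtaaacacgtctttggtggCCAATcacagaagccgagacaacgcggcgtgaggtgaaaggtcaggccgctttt
Hnrnpr, chr4:136310692-136310941, plus strand: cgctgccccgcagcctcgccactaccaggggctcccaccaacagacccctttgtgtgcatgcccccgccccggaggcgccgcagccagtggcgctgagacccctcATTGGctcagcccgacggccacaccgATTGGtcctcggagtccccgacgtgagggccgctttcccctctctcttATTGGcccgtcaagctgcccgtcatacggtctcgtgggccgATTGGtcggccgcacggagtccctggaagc

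A CCAAT box stood in the window of 4 of the 5 genes, with 4 copies in Hnrnpr, 3 in Snrpf and 1 in Srsf3, and with the overlapping pair CCAATTGG, read on both strands, in U2af1. Snrpb2 had none. Over the 46 splicing factor genes with a window, 22 held a CCAAT box, or 47.8%, against 34.5% of 27025 mouse genes. Srsf3 alone of the 5 held a TATA box, which was found in 4 of 46 splicing factor genes and 13.0% of all genes. The octamer of Capicua, a repressor that binds Ataxin-1 and ATXN1L (TGAATGAA or TGAATGGA, both strands), was found in 0 of 46 windows and in 2.08% of all genes. The ETS site (CCGGAAGT, both strands) was found in 6 of the 46 and in 2.93% of all genes, and the cAMP response element (TGACGTCA, the same on both strands) in 2 of the 46 and in 1.62%, and neither was found in the 5 called genes. These are matches of letters in 1 window and say nothing of binding in HSCs.

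Of the 3 U2AF genes, 1 was called higher and 0 lower. U2af1, the small subunit, which contacts the AG at the end of the intron, had the largest rise of all 52 genes. It read 10.01 and 9.12 in the Atxn1L-null arrays, against 8.53, 8.34 and 8.22 in the WT arrays. Both null arrays lay above every WT array, although they were also farther from each other than the WT arrays were. The means were 9.57 ± 0.63 (SD, n = 2) in null and 8.37 ± 0.16 (SD, n = 3) in WT HSCs. The log2 difference was 1.20 ± 0.32 (SE), or 2.30-fold (limma adjusted p = 0.690). U2af1 has 1 probe set, so no other reading of the gene was at hand. The call ended without any single WT array, at 1.13 to 1.28. Without null 1 the difference was 0.75 and without null 2 it was 1.65, both past the criterion, but with 1 null array left, here as for every gene, that array is assumed to vary like the WT arrays, which alone give the spread. For U2af1 this removes the wide gap between the null arrays from the test, so these calls say nothing of its stability. U2af2, the large subunit, which binds the polypyrimidine tract, read 6.12 and 6.37 in null and 6.50, 6.25 and 6.23 in WT arrays, and the genotypes overlapped (log2 difference -0.08 ± 0.13). U2af1l4, a paralog of the small subunit, also overlapped, at 0.07 ± 0.34.

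**Figure D2:**
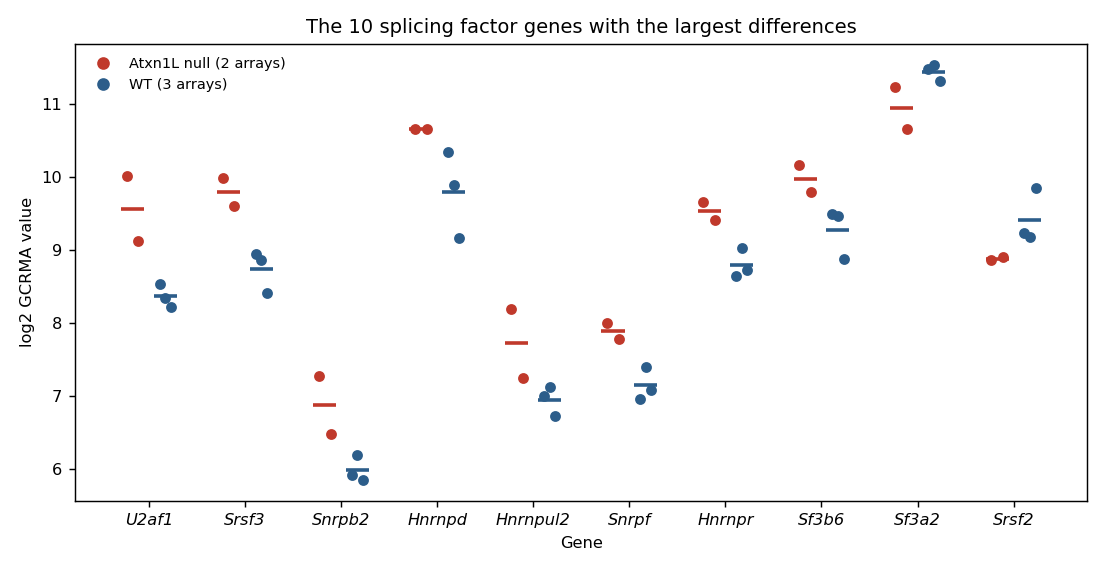
Log2 GCRMA value (vertical axis) in each array of the 10 splicing factor genes with the largest differences, Atxn1L null in red left of WT in blue, with bars at the means. In U2af1, Snrpb2 and Hnrnpul2 the 2 null arrays lie far apart, while in Srsf3, Snrpf and Hnrnpr both lie close together above the WT arrays.

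Among the 10 SR protein genes, 1 was called higher, 0 lower, 7 differences were positive and 3 negative, with a median of 0.14 and a range of -0.54 to 1.06. Srsf3, the smallest SR protein, which also serves in export of mRNA, read 9.99 and 9.61 in the Atxn1L-null arrays, against 8.94, 8.87 and 8.41 in the WT arrays. The genotypes did not overlap. The log2 difference was 1.06 ± 0.23 (SE), or 2.09-fold (limma adjusted p = 0.597). Of its 6 probe sets, 4 were called higher, each with both null arrays above all WT arrays. The second read 9.67 and 9.69 in null and 9.10, 8.64 and 8.24 in WT arrays, a difference of 1.02 ± 0.29. The third read 8.87 and 8.78 in null and 8.29, 8.19 and 7.80 in WT arrays, a difference of 0.73 ± 0.18. The fourth was dimmer, with WT values close to the floor. It read 5.33 and 5.75 in null and 4.57, 4.44 and 4.50 in WT arrays, a difference of 1.03 ± 0.15. The other 2 probe sets were dim and not called, at 0.67 ± 0.29 and 0.09 ± 0.08. Probe sets of a gene share their arrays and are not replicates of each other. Srsf3 lost its call on the highest probe set only without null 1, at 0.87, and the fourth kept it without any single array, at 0.82 to 1.24. The second lost it without null 1, null 2 or WT 2, and the third without null 1, null 2 or WT 3.

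Srsf2, an SR protein of nuclear speckles and the family member mutated in human myelodysplasia, had the most negative difference of the 52 genes without being called on its highest probe set. It read 8.86 and 8.90 in null arrays, against 9.23, 9.17 and 9.85 in WT arrays, a log2 difference of -0.54 ± 0.25 (limma adjusted p = 1.00). Its second probe set was called lower, at 7.43 and 7.74 in null and 8.08, 8.00 and 8.45 in WT arrays (-0.59 ± 0.19, limma adjusted p = 0.823). On both probe sets the null arrays lay below every WT array, but the call of the second was kept only when WT 2 was left out and ended without any other array. Srsf11, an SR-related protein also called p54, gave different answers on its probe sets. Its highest overlapped between genotypes, at 8.80 and 8.73 in null and 8.73, 8.75 and 8.52 in WT arrays (0.10 ± 0.09). The second was called lower, at 8.14 and 8.28 in null and 8.78, 9.07 and 8.88 in WT arrays (-0.70 ± 0.11, limma adjusted p = 0.432). That call was kept without each array in turn, at -0.77 to -0.62, and the third probe set of Srsf11 also had both null arrays below all WT arrays, at -0.49 ± 0.21, not called.

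The 2 Tra2 genes, whose proteins bind GAA-rich exonic enhancers, were not called on the highest probe set. Tra2a read 9.79 and 9.85 in null and 9.84, 10.37 and 10.13 in WT arrays, with null 2 just above the lowest WT array (-0.30 ± 0.18). The third probe set of Tra2a was called lower, at 5.49 and 4.90 in null and 7.45, 7.51 and 6.29 in WT arrays. This was the largest difference of any of the 153 probe sets, -1.89 ± 0.50, or 0.270-fold (limma adjusted p = 0.695), and the genotypes did not overlap. Its call was kept without WT 3, at -2.29, and ended without any other array, at -2.18 to -1.60. The second probe set of Tra2a also had both null arrays below the WT arrays, at -0.66 ± 0.27, not called. Tra2b read 9.93 in both null arrays and in WT 1, 10.08 in WT 2 and 9.82 in WT 3, a difference of -0.02 ± 0.09.

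On the highest probe sets, genes of the SF3b and SF3a complexes of the U2 snRNP had differences of opposite sign. All 6 SF3b differences were positive, with a median of 0.24 and a range of 0.03 to 0.70, and all 3 SF3a differences were negative, at -0.26 to -0.50, yet 0 of the 9 genes were called on the highest probe set and 0 had an unadjusted limma p under 0.05. The signs did not hold throughout. Sf3b2, at 0.03, turned to -0.09 with the mean over its probe sets and to -0.02 without WT 2. Without probe sets that may hybridize to several transcripts Sf3b2 was at -0.11, and Sf3b5 was read by its second probe set, at -0.20. Sf3a2 was then at -0.01, but on a probe set at the floor of the scale, which is no reading of the gene. That probe set read 1.99 and 1.98 in null and 1.99, 2.00 and 2.00 in WT arrays. On the highest probe set of Sf3b5 null 2, at 9.64, lay below the WT mean of 9.66. For Sf3b3 null 1, at 5.92, lay below the WT mean of 6.15. Sf3b6, the small subunit that touches the branch point adenosine, read 10.16 and 9.79 in null and 9.49, 9.47 and 8.87 in WT arrays (0.70 ± 0.26, limma adjusted p = 0.952). Both null arrays lay above every WT array on this and on the next 2 probe sets, at 0.47 ± 0.20 and 0.52 ± 0.18, and the last was dim. Sf3b1, the scaffold of the complex, read 10.81 and 10.45 in null and 10.34, 10.22 and 9.99 in WT arrays (0.45 ± 0.17). The third probe set of Sf3b1 was called higher, at 9.50 and 9.60 in null and 8.94, 8.84 and 8.49 in WT arrays (0.80 ± 0.16, limma adjusted p = 0.541). The genotypes did not overlap on these, while the second probe set of Sf3b1 overlapped, at -0.06 ± 0.31. The call of the third ended without null 2, at 0.74, and was kept without each other array. Sf3a2, an SF3a subunit, read 11.23 and 10.65 in null and 11.48, 11.54 and 11.31 in WT arrays (-0.50 ± 0.21, limma adjusted p = 1.00), with both null arrays below all WT arrays.

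Among the 9 Snrp genes, 2 were called higher, 0 lower, and 8 of 9 differences were positive, with a median of 0.21. Snrpf, the F protein of the Sm ring, read 8.00 and 7.78 in the Atxn1L-null arrays, against 6.96, 7.40 and 7.08 in the WT arrays. The log2 difference was 0.75 ± 0.17, or 1.68-fold (limma adjusted p = 0.613), on its only probe set, and the genotypes did not overlap. The call ended without null 1, at 0.64, and was kept without each other array. Snrpb2, a protein of the U2 snRNP that binds its RNA, read 7.27 and 6.47 in null and 5.91, 6.18 and 5.84 in WT arrays. Null 1 stood well above the rest, and the gap between null 2 and WT 2 was small. The difference was 0.89 ± 0.29, or 1.86-fold (limma adjusted p = 0.837), and its other probe sets read 0.14 ± 0.10 and 0.11 ± 0.08, not called. The call of Snrpb2 ended without any array but null 2, at 0.49 without null 1. Without null 2 it was past the criterion at 1.29, where the outlying null 1 stood alone and its distance from null 2 no longer entered the spread.

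Other Sm ring genes were not called, and all but Snrpn were bright. Snrpb was the only Snrp gene with a negative difference, -0.32 ± 0.24, and overlapped between genotypes. Its second probe set read 8.49 and 7.99 in null and 9.11, 8.71 and 8.60 in WT arrays. There both null arrays lay below all WT arrays, at -0.56 ± 0.24, not called. Snrpg, the brightest probe set of the 52 genes, read 14.75 and 14.86 in null and 14.84, 14.75 and 14.78 in WT arrays, which overlapped (0.02 ± 0.05). Snrpe read 13.43 and 13.56 in null and 13.32, 13.39 and 12.97 in WT arrays, where both null arrays lay above all WT arrays but the difference, 0.27 ± 0.15, was not called. Snrpn, the imprinted Sm protein of brain, read 2.47 to 2.49 on all 5 arrays, the floor of the scale, on the only probe set annotated to it alone. Of 6 further probe sets annotated to Snrpn together with Snurf, which share a transcript, 1 read 7.05 and 7.04 in null and 6.92, 7.05 and 7.06 in WT arrays, well above the floor and overlapping, and the others were dim, so the floor reading is that of a probe set and not of the gene. In all, 18 probe sets are annotated to a gene of these families together with another gene and were not used. They hold all the probe sets of Snrpd1, Snrpd2, Snrpa, Hnrnpa3 and the pseudogene Hnrnpa1l2-ps2, which therefore have no reading of their own here. A shared probe set of Hnrnpa1, Hnrnpa1l2-ps2, Gm10052 and Gm5643 was called lower (-0.72 ± 0.17, limma adjusted p = 0.625). It read 9.42 and 9.33 in null and 10.37, 10.04 and 9.88 in WT arrays. The others shared by these genes were at 0.29 ± 0.23 and -0.23 ± 0.15, and no other shared probe set was called.

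Among the 19 hnRNP genes, 1 was called higher, 0 lower, and 10 differences were positive and 9 negative, with a median of 0.01 and a range of -0.44 to 0.86. Hnrnpr, an hnRNP related to the RNA-binding protein Syncrip, read 9.66 and 9.41 in the Atxn1L-null arrays, against 8.64, 9.03 and 8.73 in the WT arrays. The genotypes did not overlap, and the log2 difference was 0.74 ± 0.16, or 1.67-fold (limma adjusted p = 0.586). This probe set has the kind of identifier that Affymetrix gives to those that may hybridize to several transcripts. So do the third probe sets of Srsf3 and Sf3b1, both called, and both Srsf2 probe sets described. The same holds for the second probe set of Hnrnpu and the third of Sf3b6. It also holds for the highest probe sets of Sf3a2, Sf3b2, Sf3b5, Snrpb, Snrpg, Snrpe, Hnrnpf and Hnrnpab, and for the fifth of Hnrnpdl. The second probe set of Hnrnpr, nearly as bright, read 9.32 and 9.16 in null and 9.17, 9.001 and 8.46 in WT arrays. These overlapped (0.36 ± 0.25), and the 3 other Hnrnpr probe sets were dim and not called. Without null 1 the call ended at 0.62, and it was kept without each other array.

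Of the hnRNP genes with a large difference but no call, Hnrnpd (AUF1), which binds AU-rich elements, read 10.66 in both null arrays and 10.34, 9.89 and 9.16 in the WT arrays. The 3 WT arrays were spread widely, and the difference was 0.86 ± 0.39 (limma adjusted p = 1.00). The second probe set of Hnrnpd overlapped between genotypes, at 0.31 ± 0.22. Hnrnpul2, a relative of Hnrnpu, read 8.19 and 7.24 in null and 7.001, 7.12 and 6.72 in WT arrays, 0.77 ± 0.34. Its other probe set went the opposite way, at 6.26 and 6.94 in null and 7.80, 7.10 and 7.64 in WT arrays (-0.91 ± 0.33). Neither probe set overlapped between genotypes and neither was called.

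Hnrnpu, the scaffold attachment factor A, also had probe sets with opposite signs. The highest read 12.15 and 12.43 in null and 12.46, 12.18 and 12.30 in WT arrays and overlapped (-0.02 ± 0.13). The second read 12.44 and 12.49 in null and 11.88, 12.12 and 12.07 in WT arrays, higher by 0.44 ± 0.09 but below the fold (limma adjusted p = 0.537). The third was called lower, at 8.65 and 8.32 in null and 9.999, 9.38 and 9.26 in WT arrays (-1.06 ± 0.29, limma adjusted p = 0.708). On both of these the genotypes did not overlap, in opposite directions. The call of the third ended without either null array, at -1.22 without null 1 and -0.90 without null 2.

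**Figure D3:**
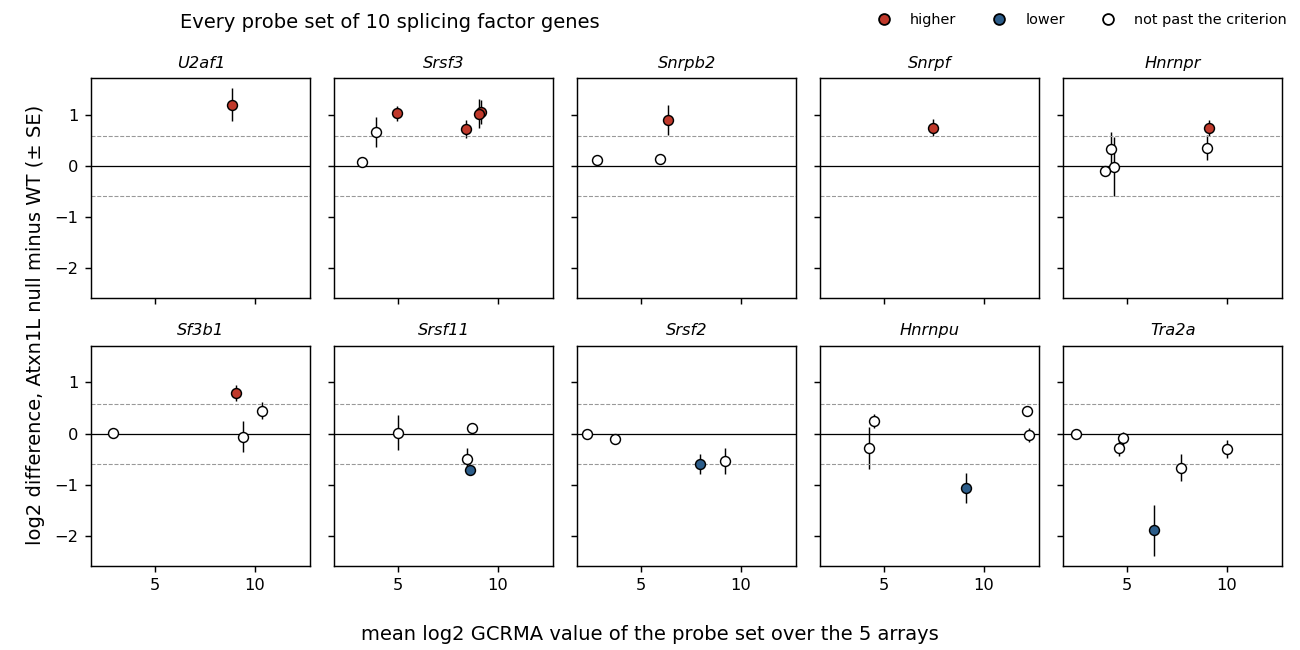
Log2 difference, Atxn1L null minus WT (vertical axis, ± SE of the limma fit), against the mean log2 GCRMA value over the 5 arrays (horizontal axis) for every probe set of the 10 splicing factor genes with a called probe set, filled red where higher and blue where lower at p of at most 0.05 and 1.5-fold. Srsf3 has 4 red points of 6, whereas Sf3b1, Srsf11 and Hnrnpu have a called probe set beside a brighter one near 0.

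The remaining bright hnRNP and SF3b genes were not called. Hnrnpc, which binds uridine tracts, was the brightest gene with an unadjusted p under the limit: it read 13.03 and 13.08 in null and 12.92, 12.79 and 12.80 in WT arrays, with no overlap, but the difference of 0.22 ± 0.05 (limma adjusted p = 0.639) was far below the fold. Hnrnpk, which binds cytosine-rich RNA, averaged 13.97 ± 0.13 (SD, n = 2) in null and 14.08 ± 0.04 (SD, n = 3) in WT HSCs. Hnrnpab averaged 13.69 ± 0.06 in null and 13.75 ± 0.03 in WT, and Hnrnpdl, the relative of Hnrnpd, 13.66 ± 0.01 in null and 13.71 ± 0.17 in WT HSCs. Hnrnpf, a binder of G-rich RNA, averaged 13.02 ± 0.12 in null and 12.74 ± 0.30 in WT, and Hnrnpa2b1 12.65 ± 0.01 in null and 12.51 ± 0.28 in WT HSCs. Sf3b2, an SF3b subunit, averaged 13.07 ± 0.004 in null and 13.04 ± 0.08 in WT HSCs. On these highest probe sets none but Hnrnpc separated the genotypes. Other probe sets of the same genes did, without a call. Both null arrays lay below all WT arrays on the third probe set of Hnrnpk, at -0.44 ± 0.07. On its second they lay above, at 0.18 ± 0.11. They lay below on the fifth of Hnrnpdl, at -0.34 ± 0.05, and the fourth of Hnrnpf, at -0.18 ± 0.10. On the dim sixth and seventh of Hnrnpab they lay above.

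Counting a gene once in a direction if any of its probe sets was called, 6 splicing factor genes were higher, Sf3b1 being added, and 4 were lower, namely Hnrnpu, Srsf11, Srsf2 and Tra2a, and 0 were both. Of all genes, 2.30% were higher and 2.21% lower by that rule. Of the 153 probe sets, 9 were called higher and 4 lower, where 1.13% of all probe sets were higher and 1.25% lower. These shares are not like for like. The 52 genes are mostly bright and have 153 probe sets, where all 18193 genes have 34945, and shares among bright genes were not computed for these counts. Limma gave 0 of the 153 an adjusted p under 0.05, and their lowest was 0.344. Over the 31 splicing factor genes with at least 2 probe sets of a mean of at least 5, the median range of the differences within a gene was 0.38 and 13 genes (41.9%) had both signs, against 0.35 and 46.3% of 2424 genes of the whole array. A range over 1 was found in 3 of the 31, Hnrnpul2, Tra2a and Hnrnpu, or 9.68%, against 7.96% of the 2424. Where in the transcript each probe set lies was not analysed here, so different readings of a gene could not be assigned to isoforms or to distance from the 3' end.

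The arrays themselves were not equal over these genes. Set against the mean of each gene, the median of the 52 genes was 0.08 in null 1 and 0.02 in null 2, against 0.01 in WT 1, -0.03 in WT 2 and -0.17 in WT 3. Over all genes the array medians lay between -0.02 and 0.01. WT 3 was the lowest array for 23 of the 52 genes and null 1 the highest for 20. Over the 5 called genes the median was 0.83 in null 1 and 0.32 in null 2, against -0.43 in WT 1, -0.15 in WT 2 and -0.49 in WT 3. Null 1 was also the array without which 4 of the 5 calls ended, and with it left out, when null 2 stood alone and the WT arrays gave the whole spread, 1 gene was called higher, U2af1, and 2 lower, Sf3a2 and Srsf5. Without WT 3, as without WT 2, 3 were called higher: Hnrnpr, Snrpf and Srsf3.

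**Figure D4:**
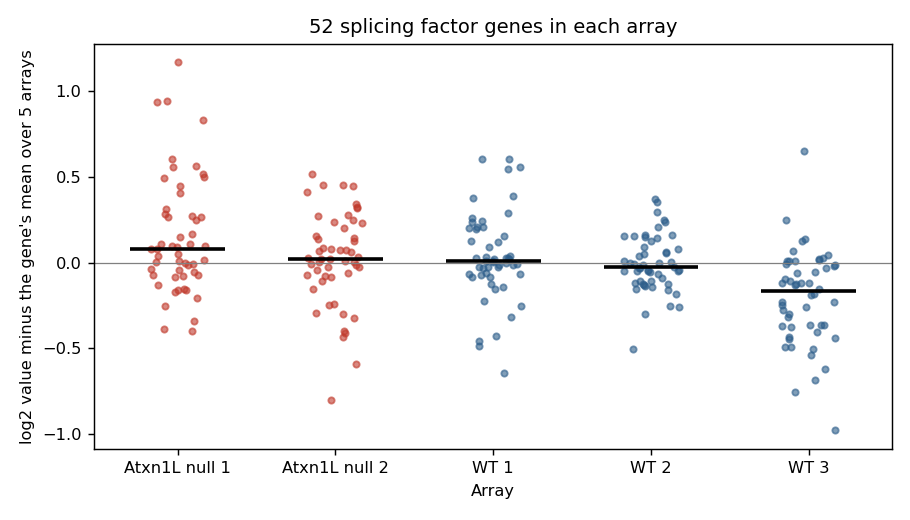
Log2 value minus the mean of the gene over the 5 arrays (vertical axis) for the 52 splicing factor genes in each array (horizontal axis), a point per gene, with bars at the medians. The bar of WT 3, at -0.17, lies farthest from 0, and null 1 holds the highest points.

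**Figure D5:**
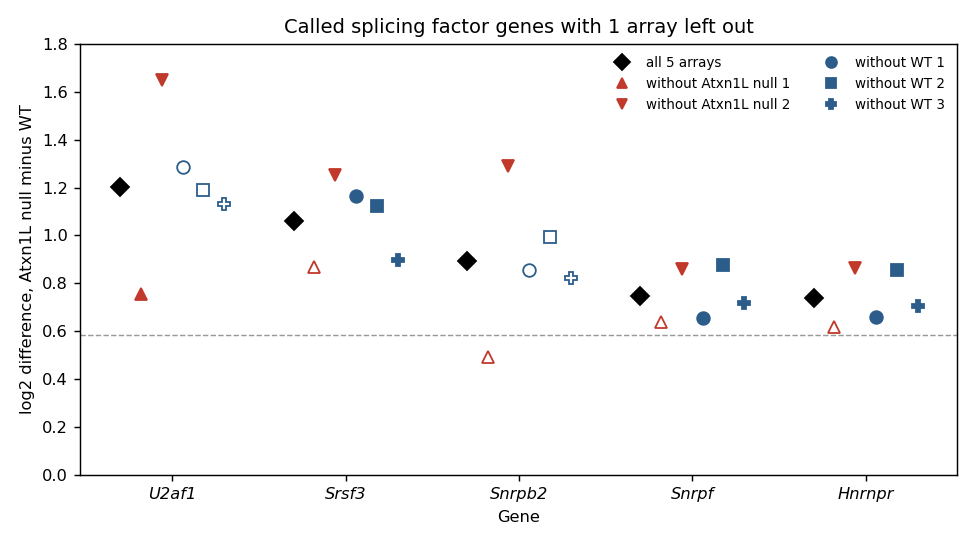
Log2 difference, Atxn1L null minus WT (vertical axis), of the 5 called genes (horizontal axis) with all 5 arrays (black diamonds) and without each array in turn, filled where the gene is still past p of at most 0.05 and 1.5-fold and open where it is not, with the dashed line at 1.5-fold. All differences stay above 0, Snrpb2 falls below the dashed line without null 1, and Srsf3, Snrpf and Hnrnpr are open only without null 1.

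Other genes of the splicing pathway, taken from 5 lists and read in the same way, held few calls. Of 147 measured, 4 were called higher (2.72%) and 3 lower, with a median difference of 0.01, where 1.57% of all genes were higher and 1.43% lower and, of the bright genes, 3.35% and 3.44%. Among 67 further spliceosome components and partners, 0 were called by limma on the highest probe set, and the median was 0.01. An unadjusted limma p under 0.05 was found for 8 of them, where 7.44% of all genes and 16.2% of the bright ones had such a p. On another probe set Ddx5 and U2surp were called higher and Prpf38b and Prpf4b lower. The 4 genes called higher on the highest probe set were Lsm3, Srpk1, Strap and Esrp2. Lsm3 belongs to the Lsm ring on U6 RNA, and Srpk1 is a kinase of SR proteins. Strap is a partner of the SMN complex that assembles Sm rings, and Esrp2 is an epithelial splicing regulator. Strap read 10.22 and 10.27 in null and 9.66, 9.49 and 9.61 in WT arrays, with no overlap (0.66 ± 0.06, limma adjusted p = 0.312), and kept its call without each array in turn, although with probe sets that may hybridize to several transcripts left out it was read by another probe set, at 0.05, not called. Srpk1 read 9.29 and 9.06 in null and 8.49, 8.76 and 8.41 in WT arrays (0.62 ± 0.15), and Lsm3 8.19 and 8.07 in null and 7.53, 7.74 and 7.08 in WT arrays (0.68 ± 0.23). Both separated the genotypes, and the call of Srpk1 ended without null 1, WT 1 or WT 3 and that of Lsm3 without any array but WT 2. Esrp2 was dim, at 5.78 and 5.10 in null and 4.74, 4.64 and 4.72 in WT arrays (0.74 ± 0.23), and kept its call only without null 2, with null 1 then the single null array.

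The 3 genes called lower on the highest probe set were Khdrbs1 (Sam68), a splicing regulator activated by signaling, Gemin7 and Pnn. Gemin7 belongs to the SMN complex, and Pnn (pinin) is a nuclear speckle protein. Khdrbs1 read 11.44 and 11.64 in null and 12.88, 12.20 and 12.10 in WT arrays (-0.86 ± 0.29, limma adjusted p = 0.861). Pnn read 11.26 and 11.47 in null and 12.20, 11.76 and 12.03 in WT arrays (-0.63 ± 0.16), and Gemin7 6.92 and 6.55 in null and 7.76, 7.18 and 7.42 in WT arrays (-0.72 ± 0.23). In all 3 both null arrays lay below every WT array. The call of Khdrbs1 was kept only without WT 1 and that of Gemin7 only without WT 2, and that of Pnn ended without null 1, WT 1 or WT 3. Of the 13 genes measured for snRNP assembly, Strap was thus higher and Gemin7 lower, and of the 9 SR protein kinase genes only Srpk1 was called.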

How the data were processed

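RNA of pooled, sorted HSCs (2 Atxn1L-null and 3 WT arrays) had been linearly amplified by T7-based in vitro transcription, which favors 3' ends, before labeling. The authors made the deposited log2 values with GCRMA (background correction, quantile normalization, summarization into probe sets). Base 2 is not stated for them and was inferred from their range. Of 45101 probe sets, 64 controls were left out and 45037 fitted, dim ones included, with lmFit and eBayes in limma 3.58.1 under R 4.3.3, with 1 mean per genotype and no block (3 residual and 0.771 prior degrees of freedom). Adjusted p-values are Benjamini-Hochberg values over all 45037. A call needed an unadjusted p no greater than 0.05 with a change of 1.5-fold or more. These limits are the paper's, which does not say whether its p was adjusted and also mentions a false discovery correction. Probe sets were named from the platform annotation, and all 52 symbols matched RefSeq by Entrez ID. The fit was checked on simulated data.

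The genes, lists and tests were chosen with earlier results of these data known. Named genes were those with a called probe set, the 10 largest differences and 10 highest means among the 52, Sf3b1, Srsf2, U2af1, U2af2, Tra2a, Tra2b and Snrpn, and called genes of the other splicing lists. Others were chosen after their values were seen. Alternatives covered the variance model, array weights, normalization, dim and cross-hybridizing probe sets, the probe set rule, the criterion, a replicate block and leaving out each array. With 5 arrays, precision is limited by their number.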

Additional observations from a re-analysis of the deposited data

Results flagged for a closer look

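Signal in the control probe sets, which the comparison of genes did not use, differed between the genotypes. The 3' minus 5' difference of Gapdh averaged 7.27 ± 0.09 (SD, n = 2) in null and 5.94 ± 0.07 (SD, n = 3) in WT arrays, 1.33 apart on the log2 scale. For beta-actin it averaged 7.35 ± 0.10 (SD, n = 2) in null and 6.57 ± 0.15 (SD, n = 3) in WT arrays, 0.79 apart. Their part in the differences of the splicing factor genes was not tested.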

How the results depend on the processing

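The count of splicing factor genes called higher was 5, and it became 3 with the mean over the probe sets of a gene (Snrpf, Srsf3 and U2af1), 1 with the replicate block (Srsf3), 0 at an adjusted p under 0.05, 8 with the fold alone, and 1 to 7 with 1 array left out. The count lower was 0, and it became 1 with the replicate block (Hnrnph3), 4 by any probe set and 0 to 2 with 1 array left out. The other splicing genes, 4 called higher, gave 1 with the mean over probe sets, 1 with the block, 2 without cross-hybridizing probe sets, 9 by any probe set, 0 at an adjusted p under 0.05, 10 by p alone, 7 by fold alone and 2 to 4 with 1 array left out. Those called lower, 3, gave 1 with array weights, 8 by any probe set, 0 at an adjusted p under 0.05, 10 by p alone, 5 by fold alone and 1 to 6 with 1 array left out. The median difference of the 52 genes moved by less than its spread between arrays in all 14 alternatives. That spread, an SD of 0.08, is larger than the median itself, 0.07, so this says little of its stability. The median lay at 0.04 to 0.14 with 1 array left out and at 0.01 over all 153 probe sets. Without cross-hybridizing probe sets Esrp2 was read by its other probe set and turned to -0.38, and Hnrnpr was read by its second probe set, at 0.36, not called. Snrpf and Snrpb2 lost their calls with array weights, while Hnrnpd gained one, at 0.87. The weights were 0.28 in WT 1, 3.47 in WT 2, 0.81 in WT 3 and 1.14 in each null array. They came from the gene-by-gene method since the default did not converge. Hnrnpd was also called higher without WT 1, at 1.13, and Sf3b6 with the alternative variance model and without dim probe sets. With a null array left out, the WT arrays alone give the spread, and the single null array is assumed to vary like them. The deviations of same-numbered arrays from their group means had correlations of -0.03 and -0.26. The deviations of the 2 null arrays mirror each other by construction, so these values cannot decide whether the numbers pair the arrays. Beyond what is named here, the cause of these changes was not tested.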
